A study of Mus musculus with 2 samples.

Results

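The genes described here are linked to the adiponectin signal in the liver cell and to AMP-activated protein kinase (AMPK). They were the receptors Adipor1 and Adipor2, the adaptors Appl1 and Appl2, the AMPK kinase Stk11 and the AMPK subunits Prkaa1, Prkaa2, Prkab1, Prkab2 and Prkag1. Each was found by its gene symbol in the deposited expression tables. Of these 10 genes, 9 were measured, out of 13326 gene symbols in all, and each had 1 row. Prkab2, the other beta subunit gene, was not analysed here. All 9 passed the minimum of 1 FPKM in at least 1 library, as did 11985 genes of the series. FPKM are counted fragments divided by the length of the transcript and by the mapped total, so levels of different genes can be set side by side.

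Liver RNA came from male C57BL/6J mice aged 12 weeks that had gone without food overnight, either wild type or Adipoq-/-, which lack the gene for adiponectin. Fasting, sex, age and strain label were common to both groups. RNA from 9 to 10 mice was combined into 1 library per genotype, so the data hold 2 libraries and no animal can be seen on its own. There was no replicate in either group, no test across samples was possible, and every difference below is between these libraries. Adipoq was not analysed here, and the targeted gene therefore gives no check of the labels.

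Adiponectin is a hormone of fat cells that acts on liver through AdipoR1 and AdipoR2, membrane proteins of the PAQR family. AdipoR1 has been tied mainly to AMPK and AdipoR2 mainly to the nuclear receptor PPAR alpha, and both have been linked to ceramidase activity. APPL1 binds the receptors' inner end, and LKB1, the product of Stk11, phosphorylates the catalytic alpha subunit of AMPK. AMPK is a heterotrimer of an alpha, a beta and a gamma subunit that senses the fall in cellular energy and restrains lipid and glucose synthesis. These steps act on proteins, whereas the values here are transcript levels.

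Both libraries showed the transcripts of hepatocytes. All 7 hepatocyte markers were present, with albumin (Alb) at 17522 FPKM in the wild-type and 14031 FPKM in the Adipoq-/- library, and Hnf4a at 91.0 and 71.9 FPKM. Over all genes the median log2 ratio of Adipoq-/- to wild type, with 1 FPKM added to each value, was -0.15, while the summed FPKM were 1.12 times as high in the Adipoq-/- library. The direction of a small difference therefore depends on the scale. Ratios below are called relative when this all-gene median has been subtracted, and as deposited when it has not. A gene was counted as at least 1.5-fold apart when its log2 ratio reached 0.585 in either direction. The added 1 FPKM makes the ratio of a low gene smaller than that of its FPKM.

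The most abundant of the genes was Adipor2, at 154 FPKM in the wild-type and 116 FPKM in the Adipoq-/- library. It was expressed above 94.5% of genes in wild type and above 92.5% in Adipoq-/-. The level in Adipoq-/- was 0.75 times that in wild type, a log2 ratio of -0.41 as deposited and -0.26 relative to all genes. Across all genes, 16.3% had a lower ratio. Among the 10% of genes with the highest mean FPKM, to which Adipor2 belongs, 8.26% had a lower ratio, and the median relative ratio there was 0.25.

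Adipor1 stood at 22.9 FPKM in wild type and 20.9 FPKM in Adipoq-/-. Its relative log2 ratio was 0.02, close to the middle of all genes. Adipor2 was thus the main receptor transcript in both libraries, 6.72 times the FPKM of Adipor1 in wild type and 5.53 times in Adipoq-/-. It made up 87.0% of the summed receptor FPKM in wild type and 84.7% in Adipoq-/-. The receptor sum was 177 and 137 FPKM, with nearly all of the gap in Adipor2.

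**Figure D1:**
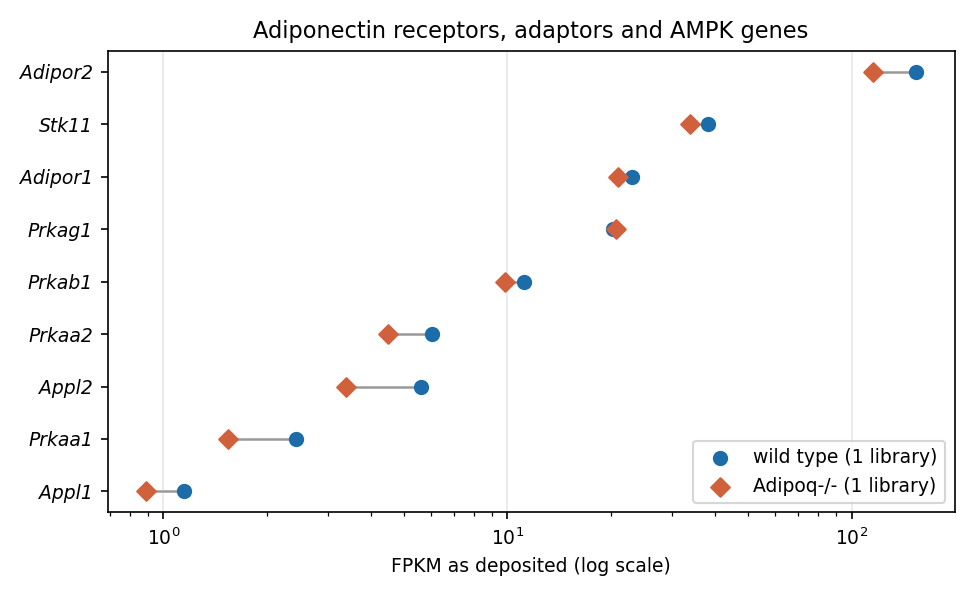
FPKM as deposited (x axis, log scale) of the 9 measured genes (y axis) in the wild-type library (circles) and the Adipoq-/- library (diamonds), with a line joining the values of a gene. The genes keep the same order in both libraries, and only Prkag1 has the higher FPKM in Adipoq-/-.

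The adaptors were low in both libraries. Appl2, which forms dimers with APPL1 and shares its domains, stood at 5.62 FPKM in wild type and 3.39 FPKM in Adipoq-/-. This was the lowest ratio of the 9 genes, -0.59 as deposited and -0.44 relative to all genes. Of all genes, 5.95% had a lower ratio, and of the genes in its decile of mean FPKM, 7.18% did. Appl1 stood at 1.15 FPKM in wild type and 0.891 FPKM in Adipoq-/-, with a relative log2 ratio of -0.03. Its level was above that of 4.76% of genes in wild type, near the lower end of what the tables list. Appl2 had 4.90 times the FPKM of Appl1 in wild type and 3.81 times in Adipoq-/-.

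Stk11, the gene for LKB1, was the runner-up in abundance, at 38.3 FPKM in wild type and 33.9 FPKM in Adipoq-/-. The difference as deposited was -0.17 on the log2 scale, and relative to all genes it was -0.02. Per unit of length, Stk11 exceeded the summed AMPK alpha subunits 4.53-fold in wild type and 5.63-fold in Adipoq-/-.

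The catalytic alpha subunits had the lower ratios among the AMPK genes. Prkaa1, which encodes alpha1, stood at 2.43 FPKM in wild type and 1.54 FPKM in Adipoq-/-, with a relative log2 ratio of -0.28. Prkaa2, which encodes alpha2, stood at 6.03 and 4.48 FPKM, with a relative log2 ratio of -0.21. Both were lower in Adipoq-/-, and alpha2 was the main alpha transcript in both libraries. Prkaa2 had 2.48 times the FPKM of Prkaa1 in wild type and 2.90 times in Adipoq-/-. The alpha sum was 8.46 and 6.03 FPKM, so the Adipoq-/- library held 0.713 times the wild-type sum.

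As deposited, the regulatory subunits stood closer to equal levels than the alpha subunits. Prkab1, the beta1 subunit that scaffolds the complex, stood at 11.1 FPKM in wild type and 9.86 FPKM in Adipoq-/-, a relative log2 ratio of -0.01. Prkag1, the gamma1 subunit that binds adenine nucleotides, stood at 20.3 and 20.7 FPKM, and its relative log2 ratio of 0.18 was the highest of the 9 genes. Prkag2, another gamma subunit, was 8.50 and 7.20 FPKM, and its relative ratio was -0.06. The gamma sum was therefore 28.8 and 27.9 FPKM. It was 3.40 times the alpha sum in wild type and 4.62 times in Adipoq-/-, a ratio of ratios of 1.36. Prkag1 has a shorter transcript than the alpha genes. Genes in its decile of transcript length had a median relative log2 ratio of 0.09, and those in the deciles of Prkaa1 and Prkaa2 -0.12. The part of length in this ratio was not tested. How subunit transcripts relate to the amount of assembled enzyme was not measured.

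In descending FPKM the order was Adipor2, Stk11, Adipor1, Prkag1, Prkab1, Prkaa2, Appl2, Prkaa1 and Appl1, the same in both libraries. With 1 library per genotype no spread is known, and neighbours such as Adipor1 and Prkag1 (20.9 and 20.7 FPKM in Adipoq-/-) cannot be ranked with confidence. The same holds for Prkaa2 and Appl2 in wild type, at 6.03 and 5.62 FPKM.

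Taking the 9 genes as a group, the differences were small. As deposited, 8 of 9 were lower in the Adipoq-/- library, beside 66.9% of all genes. Relative to the all-gene median, 7 of 9 were below it, beside 50.0% of all genes by construction, and the median of the 9 was -0.03. None of the 9 was at least 1.5-fold lower or higher on the relative scale, where 2.61% of all genes were lower and 6.73% were higher by that much. As deposited, with 1 FPKM added, Appl2 alone was at least 1.5-fold lower, beside 6.17% of all genes. None was at least 1.5-fold higher, beside 3.23%. Without the added 1 FPKM, the log2 ratios of Appl2 and Prkaa1 were -0.73 and -0.66, both past that fold. The share of all genes without it was not computed. The relative ratios of 5 of the 9 genes lay within the middle 50% of all genes, between -0.18 and 0.25.

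**Figure D2:**
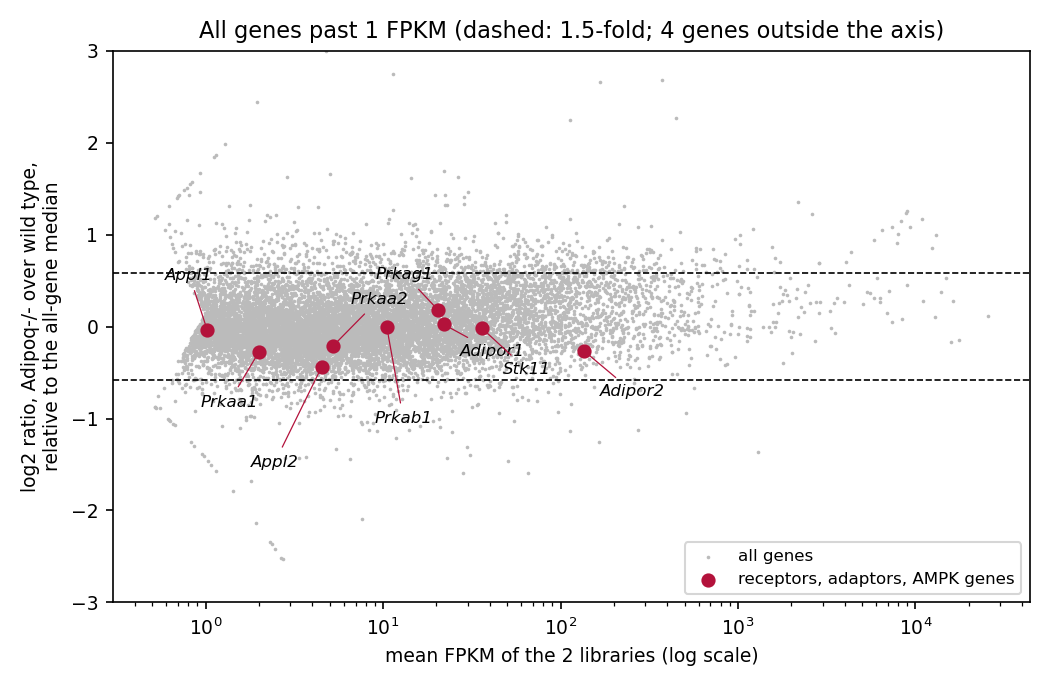
Relative log2 ratio of Adipoq-/- to wild type (y axis) against mean FPKM of the libraries (x axis, log scale) for 11985 genes (grey) and the 9 measured genes (red), with dashed lines at 1.5-fold. All 9 red points lie between the dashed lines, with Appl2 lowest at -0.44 and Prkag1 highest at 0.18.

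The ratio moved with transcript length across the whole series. Among the 10% of genes with the shortest transcripts (by the longest annotated form) the median relative log2 ratio was 0.40, and among the 10% with the longest it was -0.12. Across 11569 genes, which are not independent replicates, Spearman's rho between length and ratio was -0.42. The genes described here differ in length. Prkag1 and Prkab1, at 1652 and 2089 bases, were the shortest, and Prkaa2 and Appl1, at 7969 and 7642 bases, the longest. Against genes of the same decile of length, 5 of 9 were below the median and none was at least 1.5-fold apart, beside 2.85% of all genes lower and 3.11% higher by that much. Appl2 was then at -0.36, Adipor2 at -0.16, Prkaa1 at -0.16, Prkaa2 at -0.09 and Prkag1 at 0.08. The part of length in any single ratio was not tested.

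**Figure D3:**
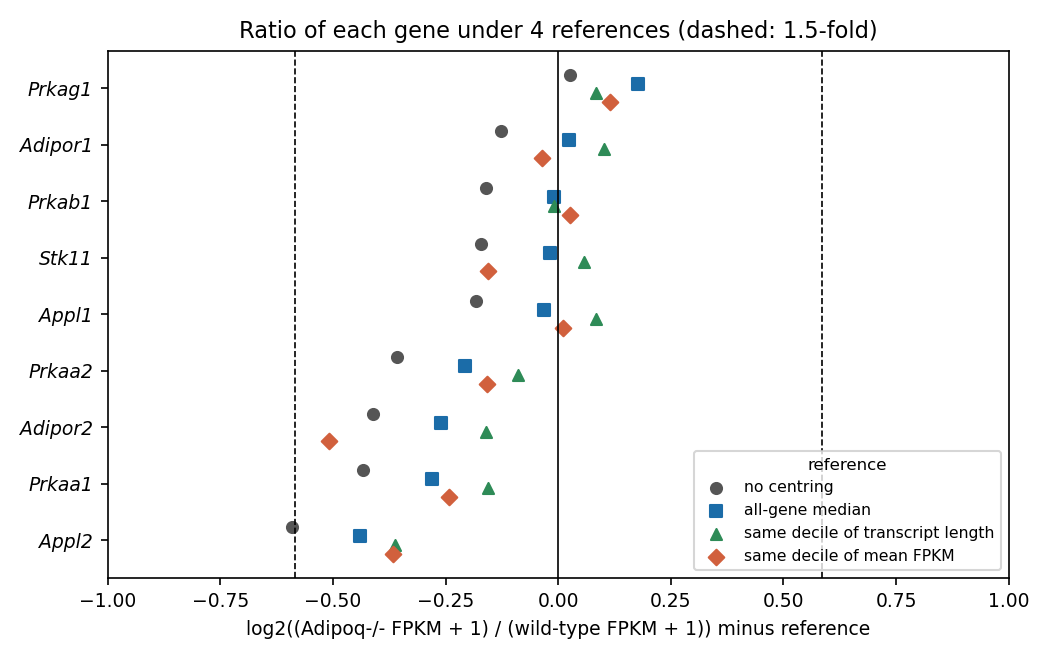
Log2 ratio of Adipoq-/- to wild type for each of the 9 genes (y axis) with no centring (circles), relative to the all-gene median (squares), to genes in the same decile of transcript length (triangles) and to genes in the same decile of mean FPKM (diamonds). Appl2, Prkaa1, Adipor2 and Prkaa2 are below 0 with each reference, Prkag1 is above 0 with each, and the other 4 lie on either side of 0.

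The genes whose pair of values was closest to that of Adipor2 were Pygl (152 and 110.2 FPKM in wild type and Adipoq-/-) and Ivd (146 and 115 FPKM). Their distances from Adipor2 on log2(FPKM + 1) in the 2 libraries were 0.07 and 0.08. With so few libraries this likeness is one of level and of a single ratio, and 55 genes lay within a distance of 0.25.

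Around these genes, 14 lists of pathway genes were read on the same scale. Of 131 further genes measured, 96 were below the all-gene median and 35 above it, with a median relative log2 ratio of -0.11. There were 10 at least 1.5-fold lower and 2 at least 1.5-fold higher, or 7.63% and 1.53%, beside 2.61% and 6.73% of all genes. Against genes of like transcript length, 72 of the 131 were below the median, their median was -0.02, with 6 at least 1.5-fold lower and 3 at least 1.5-fold higher, beside 2.85% and 3.11% of all genes. On both scales the lower genes include Cidea and the higher genes C1qtnf12. Each passed the minimum of 1 FPKM only in the library where it was higher.

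Of 5 further PAQR family genes measured, 4 were below the all-gene median. Paqr9 stood at 39.3 FPKM in wild type and 22.3 FPKM in Adipoq-/- (relative log2 ratio -0.64), and the progestin receptor gene Paqr7 at 17.7 and 9.44 FPKM (-0.69). Both were at least 1.5-fold lower, beside 2.61% of all genes. Against genes of like length Paqr7 was at -0.61 and kept this call, beside 2.85% of all genes. Paqr9 was at -0.52 and did not keep it. Mmd was 39.3 and 31.2 FPKM (-0.17). Cdh13, the gene for the adiponectin-binding T-cadherin, was not analysed here. Calreticulin (Calr), another adiponectin-binding protein, was 370 and 368 FPKM (0.14), and the scavenger and lipoprotein receptor Lrp1 139 and 125 FPKM (0.00). C1qtnf12, a secreted relative of adiponectin found under its older symbol Fam132a, was 0.694 and 1.68 FPKM (0.81). It was at least 1.5-fold higher, beside 6.73% of all genes. As it passed the minimum of 1 FPKM only in Adipoq-/-, the filter itself favours a higher ratio for it.

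Partners of the APPL proteins on early endosomes had 12 of 16 genes below the all-gene median and a list median of -0.11. None was at least 1.5-fold apart, beside 2.61% of all genes lower and 6.73% higher. With length matched, 10 of 16 were below and the median was -0.07. Against genes in the same decile of mean FPKM the median was -0.10. The small GTPases Rab5b and Rab5c, of the family that recruits APPL proteins to endosomes, were 25.3 and 19.5 FPKM (-0.21) and 60.9 and 55.6 FPKM (0.02). The inositol phosphatase Ocrl, which binds APPL1, was 1.98 and 0.964 FPKM (-0.45), and the deacetylase Hdac1 6.24 and 3.95 FPKM (-0.40).

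Among LKB1 partners and other kinases upstream of AMPK, 6 of 7 were below the all-gene median, Stk11 included, with a median of -0.08. None of the 7 was at least 1.5-fold apart, beside 2.61% of all genes lower and 6.73% higher. With length matched, 5 of 7 were below and the median was -0.02. Against genes in the same decile of mean FPKM the median was -0.14. LKB1 works in a complex with a STRAD pseudokinase and the scaffold MO25. Of the MO25 genes, Cab39 stood at 9.17 FPKM in wild type and 5.65 FPKM in Adipoq-/- (-0.46) and Cab39l at 27.2 and 26.3 FPKM (0.10). The pseudokinase gene Stradb was 17.0 and 14.3 FPKM (-0.08), and Map3k7, the gene for TAK1, 8.71 and 6.33 FPKM (-0.25). Of the AMPK-related kinases that LKB1 also activates, 6 were measured and 4 were below the all-gene median, or 2 against genes of like length. Sik3 was 9.71 and 13.2 FPKM (0.55), Nuak2 1.54 and 2.01 FPKM (0.39), and Snrk 16.0 and 12.1 FPKM (-0.23). Against genes of like length Sik3 was at 0.67 and at least 1.5-fold higher, beside 3.11% of all genes.

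Regulators of AMPK activity and of adenine nucleotides had 12 of 16 genes under the all-gene median, a median of -0.12 and 2 at least 1.5-fold lower, beside 2.61% of all genes. Against genes of like length 9 of 16 were below, the median was -0.01 and the same count of 2 was at least 1.5-fold lower, beside 2.85%. Against genes in the same decile of mean FPKM the median was -0.20. The AMP deaminase Ampd2, which removes the nucleotide that activates AMPK, was 13.5 FPKM in wild type and 6.69 FPKM in Adipoq-/- (-0.77). Cidea, a lipid droplet protein, was 1.03 and 0.146 FPKM (-0.67). It passed the minimum of 1 FPKM only in wild type, so the filter itself favours a lower ratio for it. Adenosine kinase (Adk) was 294 and 264 FPKM, at the all-gene median.

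Genes listed as AMPK substrates were grouped by function, and whether AMPK acts directly on each product was not tested. Those acting in lipid metabolism had 10 of 11 genes under the all-gene median, a median of -0.32 and 4 at least 1.5-fold lower, beside 2.61% of all genes. Against genes in the same decile of mean FPKM their median was -0.46. Against genes of like length 9 of 11 were below, the median was -0.24 and 2 were at least 1.5-fold lower, beside 2.85%. The call was lost for Gpam (-0.54) and Acacb (-0.47), and Mlxipl (-0.65) and Plin5 (-0.60) kept it; Acacb and Plin5 were named after their values were seen. The carbohydrate-responsive factor Mlxipl was 31.3 FPKM in wild type and 16.5 FPKM in Adipoq-/- (-0.73), and Gpam, which starts glycerolipid synthesis, 68.3 and 38.5 FPKM (-0.66). Srebf1 was 218 and 194 FPKM (-0.01), and Insig1, which retains SREBP in the endoplasmic reticulum, 142 and 110.3 FPKM (-0.21). Substrates in glucose metabolism and transcription had 13 of 15 genes under the all-gene median, a median of -0.18 and 2 at least 1.5-fold lower, beside 2.61% of all genes. Against genes in the same decile of mean FPKM their median was -0.16. Against genes of like length 10 of 15 were below and the median was -0.08. Crtc2 alone (-0.60) was then at least 1.5-fold lower, beside 2.85% of all genes, with Pfkfb1 at -0.576. The CREB coactivator Crtc2 was 10.5 and 5.55 FPKM (-0.66), the bifunctional enzyme Pfkfb1 25.7 and 14.8 FPKM (-0.60), and glycogen synthase Gys2 41.6 and 33.3 FPKM (-0.16). Substrates in growth, autophagy and mitochondria were evenly placed, with 6 of 11 above the all-gene median and a median of 0.01. With transcript length matched, 2 of 11 were below and the median was 0.12. Against genes in the same decile of mean FPKM the median was 0.05. Beclin (Becn1) was 40.6 and 36.1 FPKM (-0.01), Mtfr1l, listed as Fam54b, 39.5 and 42.4 FPKM (0.25), and the elongation factor kinase Eef2k 2.98 and 4.39 FPKM (0.59). Eef2k was at least 1.5-fold higher, beside 6.73% of all genes. It kept this call against genes of like length, at 0.71, beside 3.11%.

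Downstream of the receptors, the SIRT1, PGC-1 alpha and PPAR alpha arm had 8 of 11 genes under the all-gene median and a median of -0.13. The deacetylase Sirt1 was 1.37 FPKM in wild type and 0.701 FPKM in Adipoq-/- (-0.33), and mitochondrial Sirt3 89.5 and 79.5 FPKM (-0.02). Acadm, an enzyme of fatty acid oxidation, was 110.3 and 74.8 FPKM (-0.40). The ceramidase and sphingosine phosphate arm had 9 of 10 genes under the all-gene median and a median of -0.12. Acid ceramidase (Asah1) was 27.3 and 22.4 FPKM (-0.13), sphingosine kinase Sphk2 15.4 and 11.1 FPKM (-0.29), the lyase Sgpl1 11.0 and 6.47 FPKM (-0.53), and the receptor S1pr1 21.2 and 17.3 FPKM (-0.13). No member of either arm was at least 1.5-fold apart, beside 2.61% of all genes lower and 6.73% higher. With transcript length matched, 6 of 11 and 6 of 10 were below, and the medians were -0.02 and -0.01. Against genes in the same decile of mean FPKM the medians were -0.26 and -0.07. The reference thus changed the size of these medians, and the part of length or level was not tested.

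**Figure D4:**
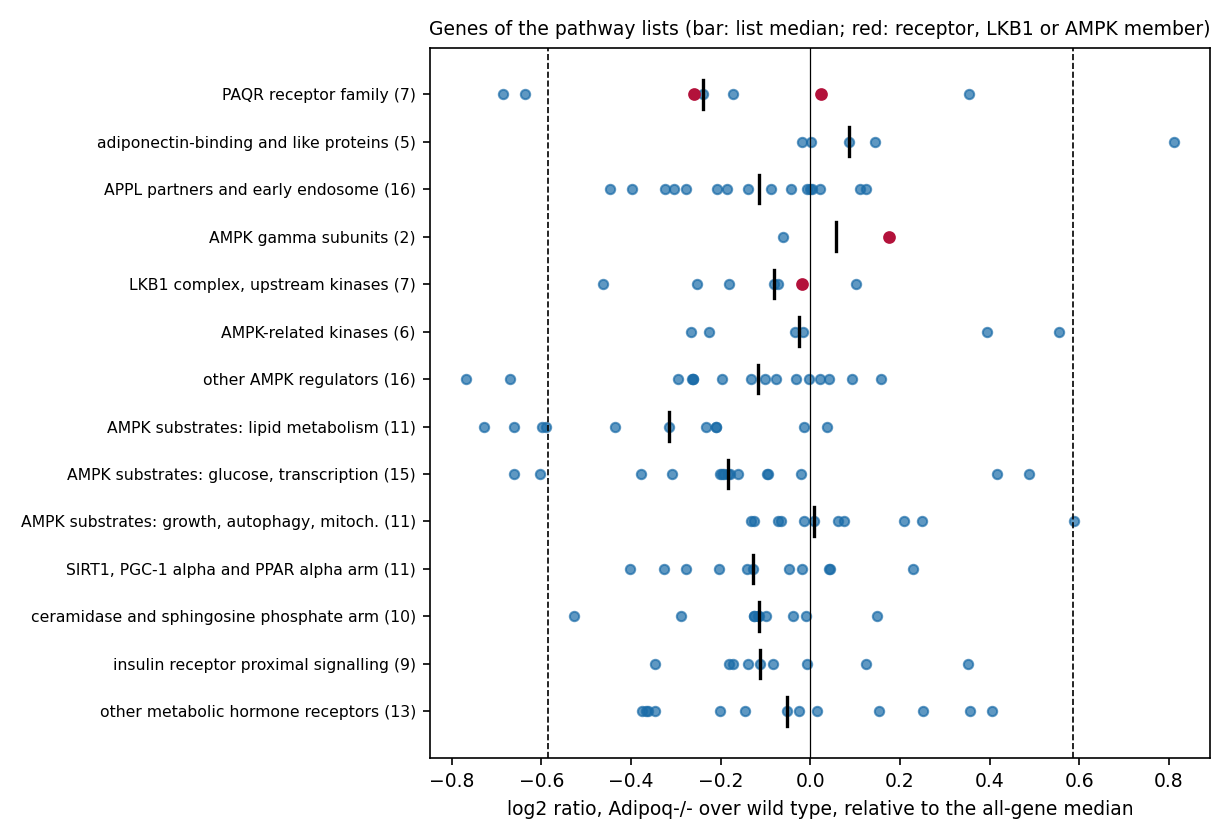
Relative log2 ratio of Adipoq-/- to wild type (x axis) for the measured genes of 14 pathway lists (rows, with the number of genes), where red points are the receptors, Stk11 or Prkag1, black bars list medians and dashed lines 1.5-fold. The list of AMPK substrates in lipid metabolism has the lowest median, -0.32, and 4 of its 11 genes lie past the lower dashed line, beside 2.61% of all genes; against genes of like length, not drawn, 2 would.

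Markers of other liver cells also differed between the libraries. All 7 Kupffer cell markers were above the all-gene median (summed 179 FPKM in wild type and 225 FPKM in Adipoq-/-). Most of the gap in the sum lay in Lyz2, at 72.5 and 116 FPKM. Marco (1.26 and 3.72 FPKM), Vsig4, Timd4 and Emr1 were also higher as deposited. Clec4f (52.0 and 48.9 FPKM) and Cd5l (32.4 and 31.2 FPKM) were lower as deposited. Of 4 adipocyte markers measured, 3 were below (summed 2165 and 1471 FPKM, nearly all Car3, which hepatocytes also express). Cfd was 13.3 and 2.01 FPKM and Cidec 4.73 and 0.913 FPKM, whereas Fabp4 was above, at 9.61 and 11.0 FPKM (0.32). Plin1, Retn and Lep were not analysed here. Of the sinusoidal endothelial markers 4 of 6 were above (59.9 and 64.4 FPKM), of the stellate cell markers 3 of 5 (69.0 and 69.2 FPKM), of the cholangiocyte markers 3 of 3 (16.2 and 23.6 FPKM) and of the erythroid markers 3 of 3 (7428 and 8617 FPKM). The gap in the cholangiocyte sum lay mainly in Spp1, with a relative log2 ratio of 0.76. Krt19 was near the minimum of 1 FPKM in both libraries (1.02 and 1.09 FPKM). Sox9 was lower as deposited (1.72 and 1.52 FPKM). The erythroid median was 0.37 relative to all genes and 0.09 with length matched, where Hbb-b1 had no length. For the Kupffer cell markers these medians were 0.40 and 0.37. The lymphocyte list had 2 genes measured (3.54 and 2.81 FPKM in sum) and the skeletal muscle list 1, Acta1 (1.77 and 1.66 FPKM). No measured marker was listed at 0. Which of these cells make the receptor and AMPK transcripts was not measured, and the part of cell composition in their ratios was not tested. In whole liver, fewer cells of a type and less RNA per cell cannot be told apart.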

How the data were processed

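The authors deposited 1 table of FPKM per library, with a gene symbol and a value per row. TopHat and Cuffdiff, and the mouse assembly names mm9 and NCBIM37, are given per the submitters' processing notes. What each program did, its version, the gene annotation and how rows were filtered: not given in the sources used here. Each table has 13352 rows, and the higher value of a row is at least 0.548 FPKM. Where a symbol had 2 rows, as 26 did, that of higher mean FPKM was used. Depth is unknown: of 1075 genes under 1.5 FPKM in both libraries, at most 5 shared a log2 ratio to 3 decimals, so no steps of whole reads were recovered.

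Ratios were computed in Python 3.11.15 with pandas 2.3.3 as log2((Adipoq-/- FPKM + 1) / (wild-type FPKM + 1)), less the median over 11985 genes with at least 1 FPKM in 1 library. Transcript lengths are those of the longest GENCODE M21 form, on a later build than that of the files, and no coordinates were used. Older symbols were matched through RefSeq synonyms. The ratio step was tested on simulated data, with changes placed only in genes at 5 FPKM or more in wild type. That simulation had no trend with transcript length. It therefore does not bear on length or on lower genes such as Appl1 and Prkaa1. No test across samples was possible.

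The genes and lists were chosen with earlier results of these data known. The text names all 9 measured genes, of each list the 2 most abundant other genes and the 2 farthest from the all-gene median, the genes most like Adipor2, and cell markers. Some genes that this takes are not reported here.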

Additional observations from a re-analysis of the deposited data

How the results depend on the processing

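Every statement rests on 1 library per genotype, and the depth behind each FPKM is unknown, so the size of the error is not known and ratios of genes near 1 FPKM such as Appl1 carry the most doubt. No paired analysis was possible because each genotype has 1 library, and no library could be left out. The median log2 ratio of the 9 genes was -0.03 relative to all genes. It was -0.15 with a pseudocount of 0.1 FPKM, -0.18 as deposited with no centring, -0.33 after scaling to equal summed FPKM, -0.15 after scaling to equal upper quartiles and -0.16 against genes in the same decile of mean FPKM. The cause was not tested. It stayed within 0.1 of the value given under the other 6 of 11 alternatives (pseudocount 0.5, no minimum, a minimum of 5 FPKM, both treatments of double symbols, length deciles), and was negative under all 11. With the minimum of 5 FPKM, Appl1 and Prkaa1 drop out. The count at least 1.5-fold lower was 1 as deposited (with 1 FPKM added) and 1 with equal sums, and 0 under the other 9. The count at least 1.5-fold higher was 0 under all 11. Between 5 and 9 of the genes were below the reference. Appl2, Adipor2, Prkaa1 and Prkaa2 had negative ratios under every alternative that kept them, while Adipor1, Appl1, Stk11, Prkab1 and Prkag1 took both signs. FPKM ratios between paralogs do not depend on the scaling, but they were not matched for transcript length. Of the 14 pathway lists, the medians of 8 were negative under all 11 alternatives; those of the other 6 (adiponectin-binding proteins, AMPK gamma subunits, AMPK-related kinases, substrates in growth and autophagy, insulin signalling, other hormone receptors) took both signs.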

Other observations

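Receptors for other hormones of metabolism were set beside the adiponectin receptors. Of 13 measured, 8 were below the all-gene median and 6 were below genes of like length. None was at least 1.5-fold apart on either scale. Relative to the all-gene median, 2.61% of all genes were lower and 6.73% higher by that much. Against genes of like length these shares were 2.85% and 3.11%. The growth hormone receptor Ghr stood at 192 FPKM in each library (relative log2 ratio 0.15), above Adipor2, and the glucagon receptor Gcgr at 107 FPKM in wild type and 83.9 FPKM in Adipoq-/- (-0.20), below it. Fgfr4, a fibroblast growth factor receptor of bile acid control, was 13.3 and 8.95 FPKM (-0.38), whereas the cytokine receptor Lifr was 24.6 and 29.5 FPKM (0.41). Of 9 genes of proximal insulin signalling, 7 were below the all-gene median, and 4 were below genes of like length. The insulin receptor Insr was 7.86 and 5.27 FPKM (-0.35), the kinase Akt2 19.4 and 19.1 FPKM (0.12) and the adaptor Grb14 27.0 and 21.4 FPKM (-0.17). These values have no replicate check.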
